A study of Mus musculus with 16 samples.

Results

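A set of 10 keratin genes was followed in sorted mouse alveolar cells, chosen by symbol as Krt7, Krt8, Krt18, Krt19, Krt80, Krt20, Krt5, Krt14, Krt15 and Krt17. They are 10 of the 53 protein-coding keratin genes found in a count table of 27179 gene identifiers. The libraries hold RNA of alveolar type 2 (AT2) cells, which make surfactant in the air sacs, from 8 mice, each of which gave a CD44- and a CD44+ fraction. The sort kept live cells positive for Epcam and high for CD200 and without CD45, CD31 and CD104, and CD44, a receptor for hyaluronan, then divided them. The 16 libraries form 4 groups of 4, named here by the table's columns: R26 CD44-, R26 CD44+ (animals 1, 2, 7 and 8), OG CD44- and OG CD44+ (animals 3, 5, 6 and 7).

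The labels speak of mice with SP-C WT and SP-C Mutant genotypes, 4 of each, SP-C being surfactant protein C, the product of Sftpc. No label joins a column prefix to a genotype, and OG TMX is given as the treatment of every sample, controls included. R26 was taken as the SP-C WT group and OG as the SP-C Mutant group. That is an inference and may be wrong, in which case each OG against R26 difference below has the opposite sign with respect to genotype. Comparisons of CD44+ with CD44- cells within a prefix do not rest on it. The Sftpc allele, the driver of any recombinase, and the strain, age and sex of the mice are not given in the sources used here.

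Keratins are the intermediate filament proteins of epithelial cells, and a filament is built from pairs of 1 acidic type I chain and 1 basic type II chain. Krt8 (type II) and Krt18 (type I) are the usual pair of simple epithelia, Krt7 (type II) and Krt19 (type I) join them in ductal and airway epithelium, and Krt20 (type I) is best known from the gut. Krt5 (type II) with Krt14 or Krt15 (type I) marks basal cells of stratified and airway epithelium, and Krt17 (type I) is a keratin of skin appendages and of injured epithelium. Krt80 is a type II keratin found near desmosomes and the cell edge. In injured lung, raised Krt8 marks alveolar cells in transition from the AT2 to the flat AT1 state.

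The libraries held 9022471 to 21363816 counts, and 15516 genes passed the filter on low counts. Levels are given as CPM (counts scaled to a common library size, after TMM) with the SD over 4 libraries. Each difference is a log2 fold change with its SE, tested by quasi-likelihood in edgeR and called at a Benjamini-Hochberg adjusted p under 0.05 over all tested genes. Of the 10 keratins, 7 passed the filter, and Krt20, Krt5 and Krt14 did not. In bulk RNA, fewer cells of a type and less RNA per cell cannot be told apart. The 8 AT2 marker genes were detected in every library, and their summed level fell from a range of 137100 to 161700 CPM in R26 CD44- to 19760 to 23950 CPM in OG CD44+. All 8 were lower in CD44+ than in CD44- cells of both prefixes and in OG than in R26 cells of both sorts (edgeR, adjusted p under 0.05). Of all tested genes 15.4% and 28% were lower in CD44+ cells of R26 and OG. In OG against R26 cells 29.6% and 34.6% were lower for the CD44- and CD44+ sorts. The summed level of 8 AT1 markers ran from 1539 to 1735 CPM in R26 CD44- and from 2115 to 2489 CPM in R26 CD44+. It ran from 3793 to 4199 CPM in OG CD44- and from 3712 to 4138 CPM in OG CD44+, so the OG sorts overlapped.

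A single library stood apart for the keratins of stratified epithelium, R26 CD44+ of animal 1. It held 367 of the 393 Krt5 counts in all 16 libraries (93.4%), 73 of 133 Krt14 counts (54.9%) and 132 of 236 Krt15 counts (55.9%). Among keratins outside the list, it held 254 of 294 counts of Krt13 (86.4%) and 167 of 199 counts of Krt4 (83.9%), the partners of stratified lining epithelium. Trp63, the transcription factor that defines basal cells, had 41 counts there and 1 to 2 in the other R26 CD44+ libraries. Col17a1, a hemidesmosome collagen of basal cells, had 140 counts there and 12 to 36 in the others, and Lgals7, a galectin of stratified epithelium, had 26 against 1 to 7. Of the other markers on the basal list, Dapl1, Ngfr, Aqp3 and Itgb4 were also highest there among the R26 CD44+ libraries. Dlk2 (5 counts against 13 in animal 7), Snai2 (20 against 25 in animal 8) and Bcam (676 CPM against 826 in animal 2) were not. The sum over all 10 basal markers was not high there, at 720.5 CPM against 639 to 839 CPM in the other R26 CD44+ libraries, since Bcam made up most of it. The sort excluded CD104, the product of Itgb4, which basal cells carry. R26 CD44- of animal 1 was the highest of its own group for Krt5 (9 counts), Krt13 (10) and Krt4 (6). It was the lowest of that group for Krt15 (6 counts) and level with animal 2 for Krt14 (1). Results that rest on R26 CD44+ of animal 1 are given with and without that library.

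**Figure D1:**
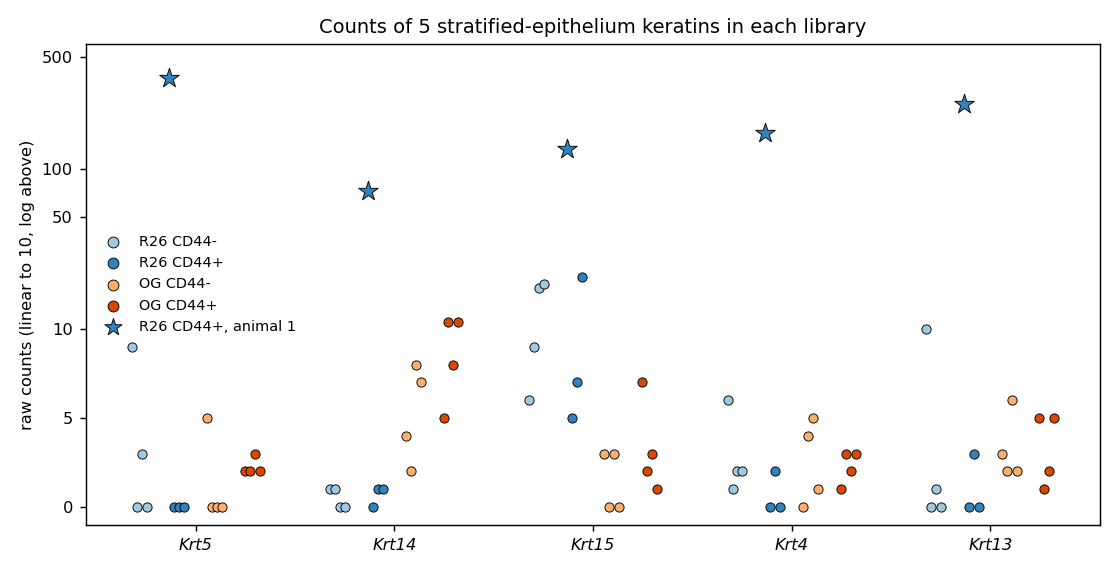
Raw counts of Krt5, Krt14, Krt15, Krt4 and Krt13 in each of the 16 libraries, coloured by group, on an axis that is linear to 10 and logarithmic above. The star marks R26 CD44+ of animal 1, which holds 367 Krt5, 73 Krt14, 132 Krt15, 167 Krt4 and 254 Krt13 counts.

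In the GRCm38 (mm10) annotation the type II genes of the list lie in 1 cluster, with Krt80 at chr15:101348315-101370162, Krt7 at chr15:101412403-101427806, Krt5 at chr15:101707069-101712905 and Krt8 at chr15:101996711-102004342. Krt18 at chr15:102028216-102032026 is the type I gene that lies beside Krt8 in that cluster. The other type I genes are on chromosome 11, with Krt20 at chr11:99428385-99438153, Krt15 at chr11:100131759-100135949, Krt19 at chr11:100140810-100145926, Krt14 at chr11:100203162-100207510 and Krt17 at chr11:100256215-100261029. RefSeq's promoter table for GRCm38.p6 has an entry for 6 of the 10, Krt7, Krt8, Krt18, Krt20, Krt5 and Krt14. The 250 bases before the start are shown for Krt7, Krt8 and Krt18, which moved together in every comparison below, and for Krt5, which was near 0 outside 1 library. All are written 5′ to 3′ on the gene's strand with matches to 4 motifs in capitals.
Krt7 (chr15:101412153-101412402, + strand): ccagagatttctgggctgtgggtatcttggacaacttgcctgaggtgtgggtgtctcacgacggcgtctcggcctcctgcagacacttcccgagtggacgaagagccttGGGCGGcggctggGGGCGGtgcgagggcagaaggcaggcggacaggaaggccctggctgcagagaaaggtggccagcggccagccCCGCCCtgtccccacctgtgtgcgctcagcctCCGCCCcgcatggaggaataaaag
Krt8 (chr15:102004343-102004592, - strand): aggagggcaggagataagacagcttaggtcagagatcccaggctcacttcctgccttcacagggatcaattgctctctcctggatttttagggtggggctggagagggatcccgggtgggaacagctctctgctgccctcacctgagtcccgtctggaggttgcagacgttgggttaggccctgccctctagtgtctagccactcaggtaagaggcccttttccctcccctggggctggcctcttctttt
Krt18 (chr15:102027966-102028215, + strand): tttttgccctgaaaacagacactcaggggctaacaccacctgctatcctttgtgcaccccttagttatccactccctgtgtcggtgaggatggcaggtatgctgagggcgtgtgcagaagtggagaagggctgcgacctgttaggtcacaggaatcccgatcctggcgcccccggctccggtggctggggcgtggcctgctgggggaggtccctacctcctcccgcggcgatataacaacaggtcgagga
Krt5 (chr15:101712906-101713155, - strand): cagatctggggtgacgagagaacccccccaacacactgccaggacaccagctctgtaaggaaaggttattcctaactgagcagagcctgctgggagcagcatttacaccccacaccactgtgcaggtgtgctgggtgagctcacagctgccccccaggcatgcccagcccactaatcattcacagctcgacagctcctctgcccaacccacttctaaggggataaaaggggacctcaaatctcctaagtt

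The motifs searched on both strands were the TATA box TATAAA, the GC box GGGCGG bound by Sp factors, the AP-1 site TGANTCA and the TEAD site GGAATG. The Krt7 sequence held 4 GC boxes, at positions -141, -128, -56 and -24 from the start, and the other 3 printed sequences held none of the 4 motifs. Of 32851 promoters in the table, 32.7% held the GC box, 12.4% the TATA box, 6.75% the AP-1 site and 12.6% the TEAD site. Krt7 and Krt18 were richer in G and C, at 66% and 60.4% with 16 and 12 CpG pairs, than Krt8 at 58% with 3 and Krt5 at 56% with 2. The median over all promoters of the table was 52.4%. A match of letters says nothing of whether a factor was bound in these cells.

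The first comparisons set CD44+ beside CD44- cells of the same animals. In R26 cells 5 of the 7 tested keratins were higher in CD44+ cells and 0 were lower, where 21.6% of all tested genes were higher and 15.4% lower. In OG cells 5 were again higher and 0 lower, where 22.3% of all tested genes were higher and 28% lower. The 5 were Krt7, Krt8, Krt18, Krt19 and Krt80 in both. The median log2 fold change of the 7 was 0.58 in R26 and 0.53 in OG cells, beside -0.02 and -0.06 over all genes.

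The next comparisons set OG beside R26 cells of the same sort, a comparison of genotypes if the prefixes are read as above. In CD44- cells 6 of 7 were higher in OG and 1 lower, where 39.4% of all tested genes were higher and 29.6% lower. In CD44+ cells 6 of 7 were higher and 1 lower, where 34.5% of all tested genes were higher and 34.6% lower. Krt17 joined the 5 above among those higher, and Krt15 was the gene that was lower. Krt17, with at most 3 counts in an R26 library, passed the filter through OG libraries alone. Krt15, with at most 7 counts in an OG library, passed it through R26 libraries alone. The directions of Krt17 and Krt15 are thus tied to the filter and add nothing to these counts. The median log2 fold change of the 7 was 1.47 in CD44- and 1.65 in CD44+ cells, beside 0.12 and -0.01 over all genes. The 4 comparisons share libraries, so their counts are not independent of each other. With each library or animal left out in turn, the count of keratins higher in OG ran from 5 to 6 in CD44- cells and was 6 throughout in CD44+ cells, and the count higher in CD44+ cells ran from 4 to 7 in R26 and from 5 to 6 in OG.

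**Figure D2:**
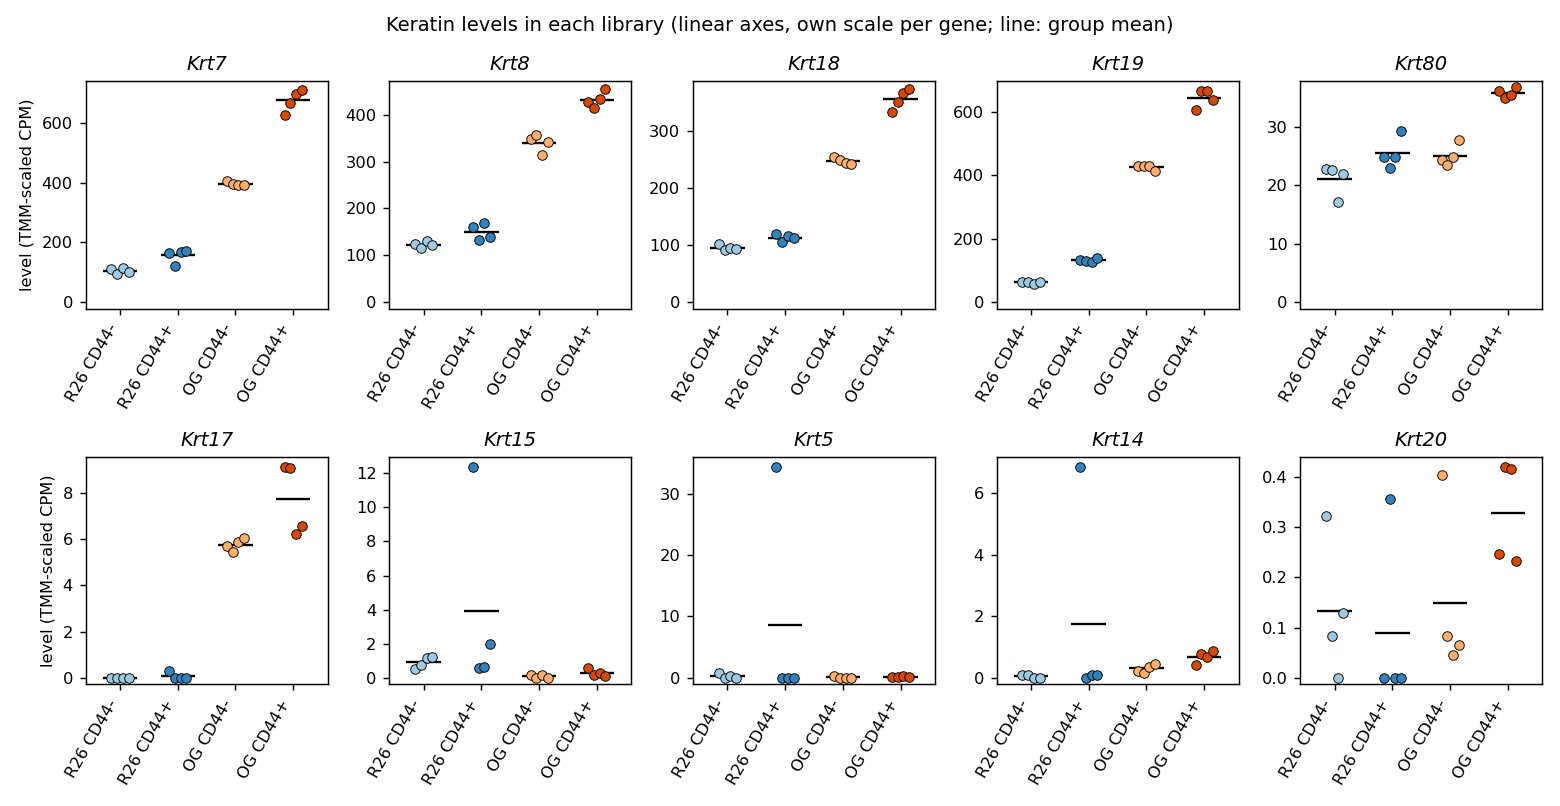
TMM-scaled CPM of the 10 keratins in each library, with a linear axis of its own for each gene, points for libraries in animal order and a line at the group mean. Krt7, Krt8, Krt18 and Krt19 step up from R26 CD44- to R26 CD44+, OG CD44- and OG CD44+ without overlap, and 1 R26 CD44+ library is the highest of the 16 for Krt5, Krt14 and Krt15.

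Krt19, a type I keratin that can pair with Krt7 or Krt8, differed more between prefixes than Krt7, Krt8 and Krt18 did, and its CD44 difference was the largest of the 4 in R26 but not in OG cells, where that of Krt7 was larger. These are orders of fitted values, and the differences between genes were not tested. Its level was 62.9, 63.0, 58.4 and 63.7 CPM in the R26 CD44- libraries of animals 1, 2, 7 and 8 and 131, 129, 126 and 139 CPM in their CD44+ libraries. In OG animals 3, 5, 6 and 7 it was 430.3, 428, 429 and 412 CPM in CD44- and 607, 665, 667 and 639 CPM in CD44+ libraries. No 2 groups overlapped, and every animal had more Krt19 in its CD44+ than in its CD44- cells. Krt19 was 2.12-fold higher in R26 CD44+ than CD44- cells (log2 fold change 1.08 ± 0.05, edgeR adjusted p 5.55e-14) and 1.52-fold higher in OG CD44+ than CD44- cells (0.60 ± 0.04, adjusted p 1.67e-10). It was 6.86-fold higher in OG than R26 CD44- cells (2.78 ± 0.05, adjusted p 3.41e-23) and 4.91-fold higher in CD44+ cells (2.30 ± 0.05, adjusted p 7.62e-22). The CD44 difference itself was smaller in OG than in R26 cells, by an interaction of -0.48 ± 0.07 on the log2 scale (edgeR adjusted p 7.84e-06). Without the R26 CD44+ library of animal 1 the interaction was -0.37 (edgeR adjusted p 0.000257). In that fit the median interaction of all tested genes moved too, by 0.12.

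Krt7, the type II keratin of ductal epithelium, had 109.5, 95.03, 113 and 102 CPM in R26 CD44- libraries and 163, 121, 169 and 172 CPM in R26 CD44+ libraries, in the same order of animals. It had 404, 394, 391 and 393 CPM in OG CD44- and 627, 667, 698 and 709 CPM in OG CD44+ libraries. The 4 groups did not overlap, and the lowest R26 CD44+ library, of animal 2, lay well below its 3 neighbours. Krt7 was 1.49-fold higher in CD44+ cells of R26 (log2 0.58 ± 0.08, edgeR adjusted p 1.35e-05) and 1.71-fold higher in those of OG (0.77 ± 0.08, adjusted p 1.4e-07). Between prefixes it was 3.77-fold higher in OG CD44- cells (1.92 ± 0.08, adjusted p 4.29e-14) and 4.31-fold higher in OG CD44+ cells (2.11 ± 0.08, adjusted p 9.31e-15). The interaction of 0.19 ± 0.11 did not pass the test (edgeR adjusted p 0.238), but with the animal as a block it was 0.20 and passed (adjusted p 0.0214).

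Krt8 and Krt18, the filament pair of simple epithelium, moved by similar amounts. Krt8 had 124, 115, 129.9 and 121 CPM in R26 CD44-, 161, 133, 169 and 139 CPM in R26 CD44+, 349, 358, 314 and 343 CPM in OG CD44- and 427, 415, 434 and 456 CPM in OG CD44+ libraries. Krt18 had 102, 91.5, 95.3 and 93.1 CPM in R26 CD44-, 119, 106, 116 and 112 CPM in R26 CD44+, 254, 248.6, 243 and 243 CPM in OG CD44- and 333, 351, 367 and 374 CPM in OG CD44+ libraries. For both genes the 4 groups stood apart in that order. The step from CD44- to CD44+ in R26 cells was small, 1.23-fold for Krt8 (log2 0.30 ± 0.07, edgeR adjusted p 0.000822) and 1.19-fold for Krt18 (0.25 ± 0.05, adjusted p 0.000399). Without R26 CD44+ of animal 1 those steps were 0.20 for Krt8 and 0.15 for Krt18 and still passed (edgeR adjusted p 0.0263 and 0.0175). In that fit the median step of all tested genes moved too, by -0.06.

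In OG cells the step was 1.27-fold for Krt8 (log2 0.35 ± 0.06, edgeR adjusted p 6.78e-05) and 1.44-fold for Krt18 (0.53 ± 0.05, adjusted p 4.34e-09). The CD44 difference of Krt18 was larger in OG than in R26 cells, by 0.28 ± 0.07 (edgeR adjusted p 0.00431), and that of Krt8 gave an interaction of 0.05 ± 0.09 that did not pass (adjusted p 0.741). Between prefixes, Krt8 was 2.78-fold higher in OG CD44- and 2.88-fold higher in OG CD44+ cells (log2 1.47 ± 0.06 and 1.52 ± 0.06, edgeR adjusted p 7.6e-16 and 4.89e-16). Krt18 was 2.59-fold higher in OG CD44- and 3.15-fold higher in OG CD44+ cells (1.37 ± 0.05 and 1.65 ± 0.05, adjusted p 1.58e-17 and 6.84e-19). Of the Krt8 transcript's 50-base windows, 26.9% also occur in the pseudogene Krt8-ps, so reads of Krt8 could be split with that copy. Of the Krt18 windows 0.72% were shared with another gene and of the Krt19 windows 0.

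**Figure D3:**
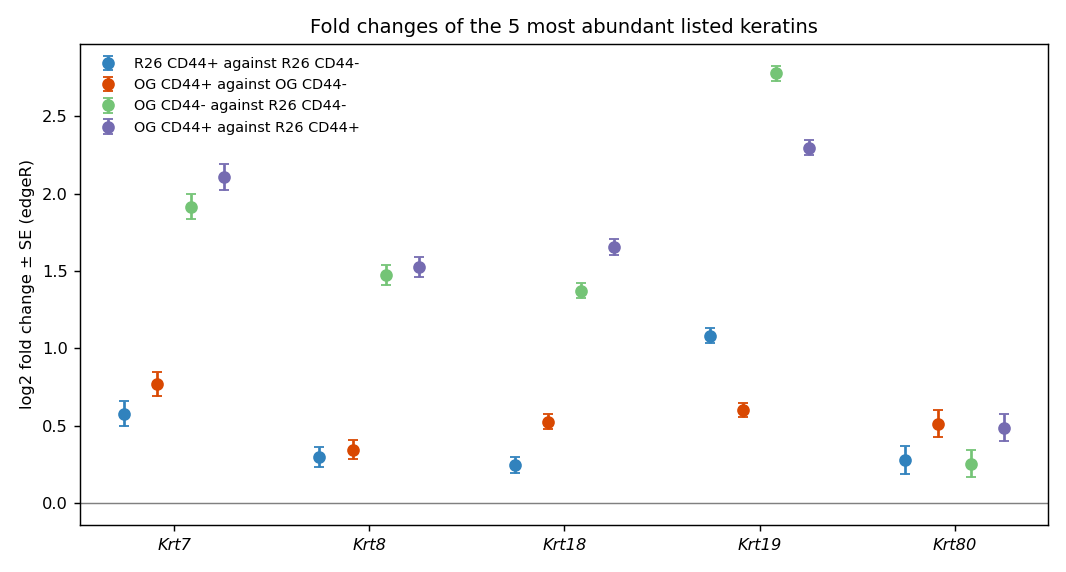
Log2 fold changes ± SE from edgeR for Krt7, Krt8, Krt18, Krt19 and Krt80 in 4 comparisons, with 4 libraries a group. The OG against R26 differences of Krt7, Krt8, Krt18 and Krt19 lie between 1.37 and 2.78, and their CD44 differences between 0.25 and 1.08.

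The order of the 4 groups was the same for Krt7, Krt8, Krt18 and Krt19, with R26 CD44- lowest, then R26 CD44+, OG CD44- and OG CD44+. Each neighbouring pair in that order differed (edgeR adjusted p under 0.05), also OG CD44- against R26 CD44+, where Krt19 was 3.24-fold, Krt7 2.53-fold, Krt8 2.26-fold and Krt18 2.18-fold higher in OG CD44- cells. In that comparison 5 of the 7 tested keratins were higher and 1 was lower, where 35.2% of all tested genes were higher and 36.6% lower. The groups were fully apart for 5 of the 7, all higher in OG, and for 1 lower, where 31.6% and 30.7% of all tested genes were apart in those directions. In the CD44 comparisons 5 keratins were apart and higher in R26 CD44+ cells and 6 in OG CD44+ cells, where 17.2% and 22.6% of all tested genes were, and 0 were apart and lower, where 11.6% and 28.4% were. In OG against R26 cells 6 were apart and higher and 1 lower in each sort. Of all tested genes 38.6% and 29% were so for the CD44- sort, and 29.3% and 28.3% for the CD44+ sort. The OG against R26 counts, also those of OG CD44- against R26 CD44+, include Krt17 and Krt15, whose directions are tied to the filter. Of the 7 tested keratins, 1 had a positive and 1 a negative interaction of prefix and sort, Krt18 and Krt19, where 6.57% and 18.1% of all tested genes had.

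Krt80, the type II keratin of cell edges, was present at lower levels and differed less. It had 22.8, 22.6, 17.1 and 22.0 CPM in R26 CD44-, 24.8, 23.0, 24.9 and 29.3 CPM in R26 CD44+, 24.3, 23.4, 24.9 and 27.7 CPM in OG CD44- and 36.2, 34.9, 35.4 and 36.9 CPM in OG CD44+ libraries. OG CD44+ cells stood clear of all others, and R26 CD44+ and OG CD44- cells overlapped (log2 -0.03 ± 0.09, edgeR adjusted p 0.805). Krt80 was 1.43-fold higher in OG CD44+ than OG CD44- cells (0.51 ± 0.09, adjusted p 2.47e-05) and 1.40-fold higher in OG than R26 CD44+ cells (0.49 ± 0.09, adjusted p 3.32e-05). The differences against R26 CD44- cells were smaller, at 0.28 ± 0.09 for R26 CD44+ (edgeR adjusted p 0.0181) and 0.25 ± 0.09 for OG CD44- (adjusted p 0.0135). Without R26 CD44+ of animal 1 neither passed, at 0.23 and 0.15 (edgeR adjusted p 0.0699 and 0.142), and these calls ended in 10 and 14 of the fits without 1 library or animal. The second comparison does not hold that library. In the fit without it the median log2 fold change of all tested genes moved too, by -0.06 and -0.11. Leaving out R26 CD44- of animal 8 instead moved that median by -0.07 and -0.11. Krt80 lies within the antisense gene Gm35853 on the opposite strand, and the strand setting of the counting is not given in the sources used here.

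Krt17, the keratin of injured epithelium, was low but divided the prefixes. It had 0 counts in each R26 CD44- library, 3, 0, 0 and 0 counts in R26 CD44+, 99, 65, 131 and 93 counts in OG CD44- and 111, 130, 75 and 85 counts in OG CD44+ libraries. Every OG library was above every R26 library. Summed over libraries, 388 counts in OG CD44- against 0 in R26 CD44- made it at least 106-fold higher, with a floor of 3 counts over the group. The 401 counts in OG CD44+ against 3 in R26 CD44+ gave a ratio of 106 with a 95% exact interval of 36.1 to 517 that covers counting error only. Both differences passed the edgeR test (adjusted p 7.73e-12 and 1.9e-11), and the fitted fold changes depend on a prior count and are not printed. As given above, Krt17 passed the filter through OG libraries alone, so the direction of both differences is tied to the filter. Krt17 averaged 5.76 ± 0.26 CPM in OG CD44- and 7.76 ± 1.56 CPM in OG CD44+ cells, which did not overlap, yet the difference of 0.43 ± 0.22 missed the threshold (edgeR adjusted p 0.105). It passed with the animal as a block (0.41, edgeR adjusted p 0.047) and without R26 CD44+ of animal 1 (0.48, adjusted p 0.0342), but in 21 of the 24 fits without 1 library or animal it was not called (edgeR adjusted p 0.0506 to 0.389). Krt17 shared 3.99% of its windows with Krt14, Krt15, Krt16 or Krt42.

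Krt15, a type I keratin of basal cells, went the other way between prefixes at very low levels. As given above, it passed the filter through R26 libraries alone, so that direction is tied to the filter. It had 6, 9, 18 and 19 counts in R26 CD44-, 132, 5, 7 and 21 counts in R26 CD44+, 3, 0, 3 and 0 counts in OG CD44- and 7, 2, 3 and 1 counts in OG CD44+ libraries. In CD44- cells OG was lower without overlap (log2 -3.26 ± 1.34, edgeR adjusted p 0.0443), a call that ended in 13 fits without 1 of the 16 libraries or 8 animals (adjusted p 0.051 to 0.0988) but held without R26 CD44+ of animal 1 (0.000139). In CD44+ cells the difference was -3.91 ± 1.03 (adjusted p 0.00391) and -2.04 without animal 1's library (adjusted p 0.00822). The CD44 difference in R26 cells did not pass (2.07 ± 0.83, adjusted p 0.0669) and was 0.15 without that library (adjusted p 0.842).

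Krt5, the basal type II keratin, had 9, 0, 3 and 0 counts in R26 CD44-, 367, 0, 0 and 0 counts in R26 CD44+, 5, 0, 0 and 0 counts in OG CD44- and 2, 2, 3 and 2 counts in OG CD44+ libraries. Outside the library of animal 1, no library exceeded 9 counts, and 3 counts correspond to 0.134 to 0.356 CPM over the libraries. Krt14, its usual type I partner, had 1, 1, 0 and 0 counts in R26 CD44-, 73, 0, 1 and 1 in R26 CD44+, 4, 2, 8 and 7 in OG CD44- and 5, 11, 8 and 11 in OG CD44+ libraries. Outside R26 CD44+ of animal 1, Krt14 was higher in the OG libraries, at 2 to 11 counts against 0 to 1. The exact two-sided permutation test of Krt14 levels in OG against R26 CD44- cells gave p 0.0286, the smallest that 70 arrangements allow, and 0.429 after adjustment over the 15 such tests of Krt5, Krt14 and Krt20. Krt14 shared 11.4% of its windows with Krt16 and 3.34% with Krt17.

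Krt20 had 4, 1, 0 and 2 counts in R26 CD44-, 0, 3, 0 and 0 in R26 CD44+, 7, 1, 1 and 1 in OG CD44- and 3, 6, 5 and 3 in OG CD44+ libraries. Its exact permutation p over the 5 comparisons ran from 0.0857 to 0.857. Across Krt5, Krt14 and Krt20 the smallest adjusted p of the 15 tests was 0.429, and a single comparison with the smallest p that 4 against 4 libraries allow could not have passed that adjustment at any depth.

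Levels of different keratins were compared per length, as CPM per kb of exon. In R26 CD44- cells Krt18 led at 66.4 ± 3.11 CPM per kb, followed by Krt8 at 62.6 ± 3.17, Krt19 at 39.4 ± 1.56, Krt7 at 25.6 ± 1.92 and Krt80 at 6.88 ± 0.88. In OG CD44+ cells Krt19 led at 409 ± 17.7 CPM per kb, followed by Krt18 at 248 ± 12.7, Krt8 at 221 ± 8.76, Krt7 at 165 ± 8.98, Krt80 at 11.7 ± 0.28 and Krt17 at 5.001 ± 1.008. Krt8 and Krt18 kept a ratio near 1 per length in all 16 libraries, from 0.868 to 1.07. Krt19 over Krt18 per length rose from 0.594 ± 0.037 in R26 CD44- to 1.06 ± 0.071 in R26 CD44+, 1.57 ± 0.029 in OG CD44- and 1.65 ± 0.071 in OG CD44+ cells. Krt7 over Krt8 was 0.409 ± 0.012, 0.498 ± 0.067, 0.557 ± 0.029 and 0.747 ± 0.031 in the same groups. The exon length of Krt7 is uncertain, 4094 bases for the transcripts that match RefSeq and 7049 for all annotated exons. That of Krt80 is too, at 3067 and 6393 bases. The levels per length of these 2 genes are thus uncertain.

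Summed over all 53 keratin genes, the level per length was 269 ± 7.92 CPM per kb in R26 CD44-, 347 ± 34.6 in R26 CD44+, 755 ± 13.8 in OG CD44- and 1083 ± 38.6 in OG CD44+ cells. The 10 listed keratins made up 75.1%, 84.4%, 95.9% and 97.9% of these sums. Krt19 took 14.7% of the sum in R26 CD44- and 37.8% in OG CD44+ cells, whereas Krt8 took 23.3% and 20.4% and Krt18 24.7% and 22.9%. The share of Krt7 rose from 9.53% to 15.2% between those groups.

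**Figure D4:**
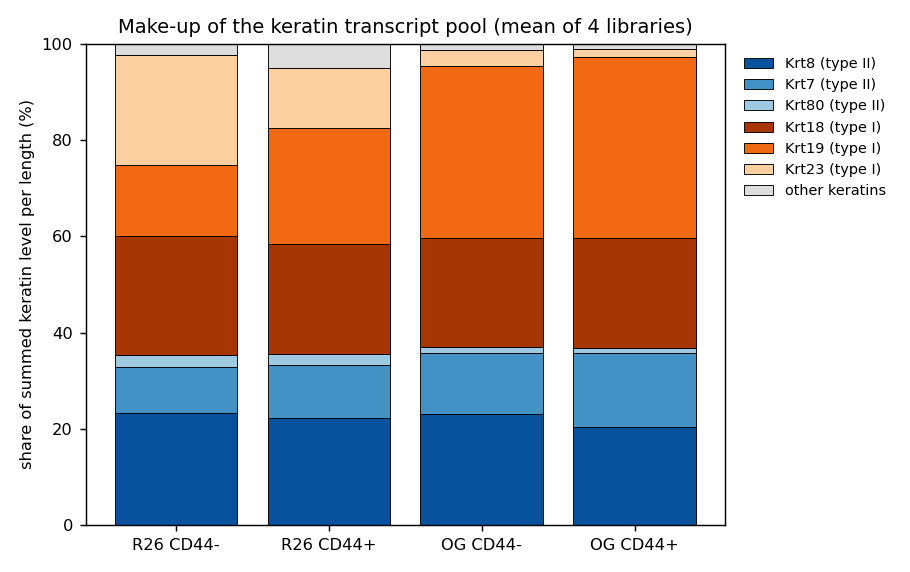
Share of each keratin in the summed keratin level per length, as the mean of 4 libraries in each group, with type II keratins in blue and type I keratins in orange. Krt19 widens from 14.7% in R26 CD44- to 37.8% in OG CD44+ cells while Krt23 narrows from 23.0% to 1.53%.

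Krt23, a type I keratin outside the list, was lower in all 4 comparisons. It had 96.6 ± 2.12 CPM in R26 CD44-, 66.7 ± 5.89 in R26 CD44+, 40.4 ± 2.17 in OG CD44- and 25.97 ± 0.41 in OG CD44+ cells, and the 4 groups did not overlap. Its log2 fold changes were -0.53 ± 0.06 and -0.64 ± 0.06 for CD44+ against CD44- in R26 and OG cells and -1.25 ± 0.06 and -1.36 ± 0.06 for OG against R26 in CD44- and CD44+ cells (edgeR adjusted p 9.46e-08, 1.55e-08, 2.03e-15 and 2.19e-15). Of the 43 keratins outside the list, 34 had counts and only 4, Krt10, Krt16, Krt23 and Krt87, were tested. Krt10, a type I keratin of differentiating epidermis, was lower in OG than R26 CD44- cells (log2 -0.62 ± 0.25, edgeR adjusted p 0.0329) and was not called in the other 3. Krt16, a type I keratin of activated skin, had 0 counts in R26 CD44- and 58 in OG CD44- cells, at least 15.9-fold more, and 3 and 70 counts in CD44+ cells (edgeR adjusted p 1.46e-06 and 5.74e-06). With at most 2 counts in an R26 library, Krt16 passed the filter through OG libraries alone, so its direction is tied to the filter. Krt84, a type II keratin that did not pass the filter and was singled out after its values were seen, had 0 counts in all 8 R26 libraries and 38 and 40 in OG CD44- and CD44+ cells, at least 10.4-fold and 10.6-fold more. Other keratins under the filter were lower in OG when tested without it, also chosen after their values were seen. Krt12, a type I keratin of cornea, had 44 counts in R26 CD44- and 6 in OG CD44- cells (log2 -2.94 ± 0.65, edgeR adjusted p 0.000182), and 19 and 2 in CD44+ cells (-3.24 ± 0.87, adjusted p 0.00163). The type II keratins Krt81 and Krt78 fell from 18 to 2 and from 22 to 4 counts between the CD44- groups (edgeR adjusted p 0.00831 and 0.00727) and from 26 to 3 and from 26 to 6 between the CD44+ groups (adjusted p 0.00297 and 0.00868). Without a filter, 3 keratins that were neither listed nor tested with it were higher and 3 lower in OG for the CD44- sort, and 3 were higher and 6 lower for the CD44+ sort, of which Krt4 and Krt13 rest on the R26 CD44+ library of animal 1. With the filter, 39.4% of all tested genes were higher and 29.6% lower for the CD44- sort, and 34.5% and 34.6% for the CD44+ sort. The shares without a filter are not given here, so these counts say nothing particular of keratins.

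Since type I and type II chains pair, their summed levels per length were set against each other over all 53 genes. The log2 ratio of type II to type I was -0.79 ± 0.07 in R26 CD44-, -0.69 ± 0.17 in R26 CD44+, -0.75 ± 0.06 in OG CD44- and -0.76 ± 0.05 in OG CD44+ cells. No comparison passed the exact two-sided permutation test, with differences of 0.10 (p 0.286) and -0.01 (p 0.8) for CD44+ against CD44- in R26 and OG cells, and 0.04 (p 0.4) and -0.08 (p 0.4) for OG against R26 in CD44- and CD44+ cells. The smallest p the design allows is 0.0286. The outcome depended on which keratins were summed. With the sums kept to the 10 listed keratins, which leaves Krt23 out, the differences were -0.23 for CD44+ against CD44- in R26 cells and -0.52 and -0.35 for OG against R26 in CD44- and CD44+ cells, each with p 0.0286.

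Genes were ranked by how closely their log2 levels, centred on their own mean, followed each keratin over the 16 libraries, by root mean square difference among 14019 genes. Rtn4, a reticulon of the endoplasmic reticulum, was closest to Krt8 (0.0873) and to Krt18 (0.0861). Krt18 was at rank 3 for Krt8 (0.0939), and Krt8 at rank 2 for Krt18. For Krt7 the closest were Vill (0.108) and Agrn (0.108), with Krt18 at rank 48. For Krt19 they were Trim16 (0.138) and Ano1 (0.182), with Krt7 at rank 43. Krt80 was closest to Nhsl1 (0.112) and Cald1 (0.121), and Krt17 to Anxa10 (0.421) and Tenm4 (0.494). Krt15 had no close match, its first being Trpm5 at 0.796.

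Keratin filaments are anchored and arranged by linker proteins, of which 16 of 19 listed were tested. In CD44- cells 12 were higher and 4 lower in OG than R26, and in CD44+ cells 11 were higher and 3 lower, with median log2 fold changes of 0.59 and 0.83 beside 0.12 and -0.01 over all genes. Of all tested genes 39.4% were higher and 29.6% lower for the CD44- sort, and 34.5% and 34.6% for the CD44+ sort. Among those with the smallest adjusted p were Sfn, the adaptor stratifin, at 38.6 ± 0.84 CPM in R26 CD44- and 299.9 ± 4.06 in OG CD44- cells (log2 2.96 ± 0.09, edgeR adjusted p 4.86e-17), and Fam83h, which recruits casein kinase to keratin filaments, at 45.9 ± 2.34 and 156 ± 3.19 CPM (1.77 ± 0.06, adjusted p 1.42e-18). Pkp3, a desmosomal plakophilin, rose by 1.42 ± 0.06 and Plec, which ties filaments to hemidesmosomes, by 1.32 ± 0.07 (edgeR adjusted p 2.18e-16 and 1.86e-14). Pkp4, an armadillo protein of junctions, fell by 0.87 and the keratin-binding proteins Fbf1 and Tchp by 0.60 and 0.78 (edgeR adjusted p 2.26e-09, 1.37e-08 and 2.81e-05). Between sorts, 5 linkers were higher and 1 lower in R26 CD44+ cells, beside 21.6% and 15.4% of all tested genes. In OG CD44+ cells 6 were higher and 4 lower, beside 22.3% and 28% of all tested genes. With 16 linkers tested, the counts of neither prefix lay far from the background. Eppk1, a keratin-bundling plakin, was higher in CD44+ cells of both, by 0.45 ± 0.05 in R26 and 0.63 ± 0.05 in OG (edgeR adjusted p 3.17e-07 and 1.03e-09).

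The other intermediate filaments were 11 genes. Of 8 tested, 6 were higher and 0 lower in R26 CD44+ than CD44- cells, and 5 were higher and 0 lower in OG CD44+ cells, beside 21.6% and 15.4% of all tested genes in R26 and 22.3% and 28% in OG. In CD44- cells 5 were higher and 1 lower in OG than R26, beside 39.4% and 29.6% of all tested genes. In CD44+ cells 1 was higher and 2 lower, beside 34.5% and 34.6%. Vim, the vimentin of mesenchymal cells, had 7.67 ± 0.65 CPM in R26 CD44-, 70.6 ± 20.8 in R26 CD44+, 38.1 ± 3.15 in OG CD44- and 89.2 ± 20.1 in OG CD44+ cells. Its CD44 difference was larger in R26 than in OG cells (interaction -1.98 ± 0.30, edgeR adjusted p 0.000353), and in CD44+ cells its OG against R26 difference of 0.33 ± 0.18 did not pass (adjusted p 0.126). Synm, a filament partner of desmin and vimentin, fell by 1.25 and 1.94 in OG CD44- and CD44+ cells (edgeR adjusted p 2.53e-10 and 9.5e-14).

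Of 12 transcription factors known to act on epithelial keratin genes, 10 were tested. Of these 3 were higher and 5 lower in OG than R26 CD44- cells, beside 39.4% and 29.6% of all tested genes, and 2 were higher and 6 lower in CD44+ cells, beside 34.5% and 34.6%. Klf4, a factor of epithelial differentiation, fell by 2.59 and 2.03 in OG CD44- and CD44+ cells (edgeR adjusted p 5.18e-15 and 1.74e-13). The AP-1 member Junb fell by 2.55 and 1.42 (adjusted p 3.04e-12 and 4.12e-09) and Elf3, an epithelial ETS factor, by 1.38 and 0.87 (adjusted p 8.49e-17 and 8.62e-13). Fosl1, another AP-1 member, was higher in OG, by 2.21 ± 0.16 in CD44- and 0.55 ± 0.15 in CD44+ cells (edgeR adjusted p 5.95e-12 and 0.00272).

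Other epithelial and mesothelial cells also carry simple epithelial keratins. The summed levels of club and secretory, ciliated and mesothelial markers moved with the sort and, for some lists, with the prefix. The summed level of 6 club and secretory markers ran from 557 to 1184 CPM in R26 CD44- and 1800 to 3288 CPM in R26 CD44+ libraries, and from 638 to 761 CPM in OG CD44- and 1845 to 2546 CPM in OG CD44+ libraries. The 6 ciliated markers ran from 108 to 121, 149 to 255, 164 to 167 and 279 to 359 CPM in the same groups. The 5 mesothelial markers ran from 9.65 to 11.7, 44.8 to 58.9, 41.1 to 53.1 and 110.4 to 123 CPM. Msln made up most of the OG sums, at 32.48 to 39.65 CPM in OG CD44- and 94.28 to 112.7 CPM in OG CD44+ libraries. Of the 4 tested mesothelial markers, 2 were higher and 2 lower in OG CD44+ than OG CD44- cells, beside 22.3% and 28% of all tested genes. Dapl1 and Lgals7, basal markers, had 0 counts in all R26 CD44- and OG CD44- libraries. In OG against R26 CD44- cells (edgeR, adjusted p under 0.05), 8 of 8 AT1, 5 of 6 ciliated, 2 of 4 tested mesothelial and 3 of 5 tested basal markers were higher and 0 of these were lower, while 0 of 6 club and secretory markers were higher and 1 was lower. Of all tested genes 39.4% were higher and 29.6% lower there, so the mesothelial and basal counts lay near the background. In CD44+ cells 6 AT1, 5 ciliated, 1 mesothelial, 2 basal and 3 club and secretory markers were higher in OG, and 2, 0, 2, 2 and 2 were lower, beside 34.5% and 34.6% of all tested genes. Itgb4, the antigen CD104 that the sort excluded, had 6.33 to 7.25 CPM in R26 CD44-, 9.38 to 19.1 in R26 CD44+, 23.3 to 27.5 in OG CD44- and 86.8 to 99.9 in OG CD44+ libraries, the same order of groups as Krt7, Krt8, Krt18 and Krt19. The part of these cells in the keratin differences was not tested.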

How the data were processed

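RNA of sorted AT2 cells was sequenced in 16 libraries prepared with a stranded total RNA kit after ribosomal RNA removal, per the labels' protocols. Reads were aligned to mm10 with Bowtie2, per the submitters' processing notes. The counting program, its annotation and its strand setting are not given in the sources used here. The deposited values are raw counts per Entrez gene identifier, whole numbers with no sign of normalisation. Groups come from the prefix and sort in the column names, and reading R26 as SP-C WT is an inference. The identifiers were matched to symbols for 25275 of 27179 (93.0%).

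The 10 keratins and the gene lists were chosen with earlier results of these data known. The text names all 10 keratins and, from each list, genes among the up to 4 with the smallest adjusted p in each direction of a comparison. edgeR 4.0.16 in R 4.3.3 (filterByExpr, TMM, robust quasi-likelihood F test, 1 mean per group over all 16 libraries) was fitted to the whole table, with Benjamini-Hochberg adjusted p over 15516 genes. CPM used TMM library sizes. Lengths are exons of GENCODE vM21 transcripts that match RefSeq, a choice made after longer exon unions of Krt7 and Krt80 were seen, and all exons were an alternative. Chosen after seeing the data were also the exact tests and fits without a filter for low keratins, the count ratios, the look at 1 library, the 50-base windows and the promoter motifs. Intervals and floors (3 counts) cover counting error only, since the labels name no molecular identifiers.

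The alternatives were DESeq2 size factors, library totals, the DESeq2 1.42.0 Wald test, other filters, fewer libraries, an animal block and leaving out libraries or animals. The block used edgeR within a prefix and for the interaction, and limma 3.58.1 voom with animal as a random effect between prefixes. Column names give CD44- and CD44+ libraries of a prefix the same animal number, which pairs them, and their deviations from group means correlated by 0.126 to 0.240 in R26 and 0.0199 to 0.0967 in OG animals. The main fit has no term for the animal, so its p-values rest on the spread between libraries of these animals within groups. Both libraries of a mouse enter it as separate units, and the block fits account for the animal.

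The edgeR fit was tested on simulated data. In its first form, with changed genes drawn above 1 CPM, it missed the bound set for the share of 2-fold changes recovered in some comparisons. The bound was then applied to a second draw above 5 CPM, which met it, so recovery is less sure for low genes such as Krt15.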

Additional observations from a re-analysis of the deposited data

Results flagged for a closer look

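Among 40 sets of 4 libraries (10 keratins in 4 groups), 11 had a highest or lowest library far from the other 3 by a test on gaps. Chance flags about 1 in 20 sets of continuous values, but the 11 cannot be set against that rate, since a set in which a single library has any count is always picked out, as for Krt20 and Krt17 in R26 CD44+ and Krt5 in OG CD44- cells. R26 CD44+ of animal 1 was the high library for Krt5 (34.4 CPM), Krt14 (6.84 CPM), Krt15 (12.4 CPM) and Krt17 (0.281 CPM). R26 CD44+ of animal 2 was low for Krt7 (121 CPM) and high for Krt20 (0.356 CPM). R26 CD44- of animal 7 was low for Krt19 (58.4 CPM) and Krt80 (17.1 CPM), and OG CD44- of animal 7, another mouse, was low for Krt19 (412 CPM). OG CD44- of animal 3 was high for Krt20 (0.404 CPM) and Krt5 (0.288 CPM).

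The CD44+ against CD44- difference itself differed between the prefixes for Krt19, by -0.48 on the log2 scale, and for Krt18, by 0.28 (edgeR interaction, adjusted p 7.84e-06 and 0.00431). Every animal of both prefixes had more of both genes in its CD44+ cells. Of all tested genes, 6.57% had a positive and 18.1% a negative interaction, and 1 of the 7 tested keratins was called in each direction.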

How the results depend on the processing

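For Krt7, Krt8, Krt18 and Krt19 each of the 5 comparisons of groups kept its direction and its call under every alternative run, and so did the interactions of Krt19 and Krt18. Over the alternatives other than leaving out libraries, Krt19 in OG against R26 ran from 2.69 to 2.95 in CD44- and 2.25 to 2.39 in CD44+ cells. Krt80 in OG against R26 CD44- cells lost its call with DESeq2 size factors (0.188, edgeR adjusted p 0.0604), the DESeq2 Wald test (0.188, 0.0666), at least 50 counts in 4 libraries (0.196, 0.0512) and only the libraries compared (0.169, 0.0621), and in R26 CD44+ against CD44- with only the libraries compared (0.305, 0.0505). Krt17 in OG CD44+ against CD44- gained one with the Wald test (0.45, DESeq2 adjusted p 0.0482) and only the libraries compared (0.49, edgeR adjusted p 0.00491). Krt15 in OG against R26 CD44- lost its call with library totals (adjusted p 0.057), no filter (0.0696) and the voom block (0.0538), which with the 50-count filter and only the libraries compared, where Krt15 was not tested, gave 0 keratins lower in place of 1. Keratins lower in OG CD44+ against R26 CD44+, and in OG CD44- against R26 CD44+, numbered 2 with no filter, which added Krt5 (edgeR adjusted p 0.0293 and 0.016), and 0 with the 50-count filter and with only the libraries compared. With no filter Krt14 was also called in R26 CD44+ against CD44- (5.29, edgeR adjusted p 0.0327). Both rest on R26 CD44+ of animal 1.

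The replicate block changed 3 calls, of Krt17, Krt15 and the Krt7 interaction, so that 2 keratins had a positive interaction in place of 1, and no other call of the keratins. It turned the Krt15 interaction, which was not called, to 0.15. Other values that turned sign were not called either, namely Krt80 in OG CD44- against R26 CD44+ (0.0542 with library totals, 0.0320 with no filter) and the Krt8 interaction (-0.0290 with library totals). Genes lower in R26 CD44+ than CD44- numbered 2393, but 1134 with library totals and 1353 with only the libraries compared. Library totals moved the median of all genes by 0.17 in OG against R26 CD44- cells. The balance of type II to type I per length became -0.23, -0.52 and -0.35 with the 10 listed keratins alone, as given above, and without division by length 0.0603 in OG CD44+ against CD44- (exact p 0.143) and 0.0388 in OG against R26 CD44+. With sign changes within animals its p was 0.25 in R26 and 1 in OG cells.

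Leaving out 1 library or animal, genes lower in R26 CD44+ ran from 2227 to 4429, and interactions from 657 to 2419 higher and 1594 to 2865 lower. Keratins lower ran from 0 to 1 in both OG against R26 comparisons and from 1 to 2 in OG CD44- against R26 CD44+, and keratins with a positive interaction from 1 to 3. Of these, the Krt7 interaction was called in 6 such fits, that of Krt80 in 4 and that of Krt8 in 1. The balance ran from -0.0409 to 0.00729 in OG CD44+ against CD44-. Values that turned sign, uncalled with all libraries, were Krt15 in R26 CD44+ against CD44- (-0.0454 to 2.50), the interactions of Krt15 (-1.34 to 1.53) and Krt17 (-3.09 to 0.48) and Krt80 in OG CD44- against R26 CD44+ (-0.10 to 0.0163). In fits without an R26 library or animal the median of all tested genes moved too. It moved by -0.113 to -0.108 in OG against R26 CD44- cells and by 0.114 to 0.125 in the interaction. For CD44+ against CD44- cells it moved by -0.0766 to -0.0608 in R26 and by 0.0508 to 0.0520 in OG. The cause of the changes in keratin values and calls was not tested. Depth limits Krt5, Krt14, Krt15 and Krt20, which had at most 21 counts in any library other than R26 CD44+ of animal 1.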
